A study of Mus musculus with 3 samples.

Results

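The 9 glial lineage transcription factor genes Olig1, Olig2, Sox10, Pou3f1, Nkx2-2, Sox2, Sox6, Sox11 and Sox9 were described in single-cell RNA-seq of mouse brainstem with and without a diffuse midline glioma graft. They were found by their symbol among the 32285 features of the deposited matrices, and all 9 were present. UMIs (unique molecular identifiers) count captured mRNA molecules. Levels are given as CPM, the UMIs of a gene scaled to 1000000 UMIs of the same group of cells, and are compared between cells and libraries but not between genes.

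Tumour libraries 1 and 2 came from brainstem tumours of B6(Cg)-Tyrc-2J/J mice, which received 100000 cells of the murine diffuse midline glioma line DIPG4423 intracranially at 6 weeks of age and were dissected untreated 3 weeks later. The normal library came from untreated brainstem without tumour, described by the submitters as from the same mouse model, and the age of its donor is not given in the sources used here. The titles call the tumour libraries controls, no drug was given, and the tumours were grown from 1 injected line. The preparation removed myelin on a magnetic column and lysed red blood cells.

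In the developing brainstem, OLIG2 and NKX2-2 help commit neural progenitors to the oligodendrocyte lineage, SOX10 and OLIG1 act as that lineage advances towards myelination, and SOX5 and SOX6 keep progenitors from differentiating early. SOX9 starts gliogenesis and in the adult brain is retained mainly by astrocytes, while SOX2 marks stem and progenitor cells and SOX11 newborn neurons. POU3F1 (also called OCT6 or SCIP) is a POU-domain factor best known from promyelinating Schwann cells and also described in oligodendrocyte progenitors. Many diffuse midline gliomas carry a transcriptome close to oligodendrocyte progenitors, so these factors are commonly read out in models of the disease.

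In the GENCODE annotation of GRCm38, the build of the submitters' mm10 notes, Olig2 (chr16:91225457-91228677, plus strand) and Olig1 (chr16:91269772-91271933, plus strand) lie 41094 bp apart on the same strand. Sox10 is at chr15:79154908-79165240 on the minus strand, Sox9 at chr11:112782224-112787760 on the plus strand, Sox6 at chr7:115470872-116038796 on the minus strand and Sox11 at chr12:27334264-27342574 on the minus strand. Sox2 is at chr3:34650405-34652461, inside the longer Sox2ot gene of the same strand, Pou3f1 at chr4:124656807-124660655 on the plus strand and Nkx2-2 at chr2:147177546-147194243 on the minus strand. Olig1, Pou3f1, Nkx2-2 and Sox6 each overlap an annotated gene of the opposite strand. How the authors' counting treated reads in these overlaps and in Sox2ot is not given in the sources used here, so the values of those genes and of Sox2 carry that uncertainty.

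RefSeq promoter sequences (GRCm38.p6, upstream of the RefSeq start, read in the direction of the gene) are shown for Olig2, Sox2 and Sox11. Olig2 was lower outside the glial classes, Sox2 was shared by glioma and astrocyte-like cells, and Sox11 by glioma and neuron-like cells. Capitals mark letters found by a search on both strands for CANNTG (the E-box that basic helix-loop-helix factors such as OLIG2 read), ACAAAG and ACAATG (SOX-type sites), ATGCAAAT (the octamer of POU factors) and CCAAT, which appears as ATTGG in all 3 windows and was added to the search after the sequences were seen. The Olig2 window is chr16:91225300-91225456 on the plus strand and stops at the annotated start of the gene, the Sox2 window is chr3:34649745-34649994 on the plus strand, and the Sox11 window is chr12:27342719-27342968 on the minus strand.
Olig2: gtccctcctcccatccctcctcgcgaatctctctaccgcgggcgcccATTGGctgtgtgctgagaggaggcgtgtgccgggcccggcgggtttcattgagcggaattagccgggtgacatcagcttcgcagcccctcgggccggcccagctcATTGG
Sox2: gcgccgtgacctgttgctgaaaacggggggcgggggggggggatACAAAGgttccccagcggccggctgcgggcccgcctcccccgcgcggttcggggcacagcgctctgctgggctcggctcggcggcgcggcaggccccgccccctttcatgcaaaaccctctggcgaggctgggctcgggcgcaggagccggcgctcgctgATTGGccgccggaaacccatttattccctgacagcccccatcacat
Sox11: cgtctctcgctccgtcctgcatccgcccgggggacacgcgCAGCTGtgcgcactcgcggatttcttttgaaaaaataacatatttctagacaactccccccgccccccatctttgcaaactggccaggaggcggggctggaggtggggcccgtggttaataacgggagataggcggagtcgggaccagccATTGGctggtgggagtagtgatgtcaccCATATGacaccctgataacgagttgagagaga
The Olig2 window of 157 bases held 14 CpG dinucleotides, 66.9% G or C, and 2 CCAAT matches. The Sox2 window of 250 bases held 27 CpG, 72.0% G or C, 1 ACAAAG and 1 CCAAT, and the Sox11 window of 250 bases held 17 CpG, 58.0% G or C, 2 CANNTG and 1 CCAAT. Over all 32851 promoters of 250 bases the median was 6 CpG and 52.4% G or C, so all 3 windows were CpG-rich. Of those promoters, 66.2% held CANNTG, 16.5% ACAAAG, 10.7% ACAATG, 1.60% ATGCAAAT and 33.9% CCAAT. A match describes the letters in the window, and its absence says only that those letters are not there. RefSeq promoter entries were matched by symbol for 5 of the 9 genes. Of those not shown, the Nkx2-2 window held no CCAAT match, and some of the Sox6 windows held none.

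The tumour libraries held 12118 and 10728 cell barcodes and the normal library 4354, of which 10550, 9407 and 3083 passed the cell filters. Median depth of kept cells was 8783.5 and 11297 UMIs in the tumour libraries and 2395 UMIs in the normal library, so the normal library had the least precision. Between 13 and 37 barcodes were shared by each pair of libraries. Cells were clustered without the 9 factors, and clusters were named from marker lists that also leave them out. The graft carries Xist and the host Y-linked genes, which gives another way to find glioma cells. The class with oligodendrocyte progenitor markers (Pdgfra, Cspg4, C1ql1 and others) is called glioma below. It had 4371 cells (41.4% of kept cells) in tumour 1, 2095 (22.3%) in tumour 2 and 1 cell (0.032%) in the normal library, and all 11 of its markers were detected in both tumours, summing to 6912 and 6351 CPM there, beside 1536 and 1517 CPM for the 11 astrocyte markers.

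Summed over all kept cells, 8 of the 9 factors rose in tumour-bearing brainstem and Sox9 fell. Of 20449 genes tested, 13.1% were called higher in tumour and 8.36% lower, which is the background for these counts. The test was edgeR's quasi-likelihood test of the tumour libraries against the normal library with Benjamini-Hochberg adjustment over all genes tested and a threshold of 0.05. The lone normal library was assumed to vary like the tumour pair, and p-values cover only these libraries. With 1 residual degree of freedom, they rest largely on spread that the test shares between genes (4.42 prior degrees of freedom). An exact permutation of 2 against 1 libraries cannot go below p = 0.333. In such sums, fewer cells of a type and less RNA per cell cannot be told apart.

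Olig1, a helix-loop-helix factor of oligodendrocyte maturation and repair, had 628 and 391 CPM in tumour libraries 1 and 2, against 14.3 CPM (158 UMIs) in the normal library. Its log2 change was 5.70 ± 0.505 (SE), with an adjusted p of 0.00786 in edgeR's test. Olig2, which specifies the oligodendrocyte lineage, had 219 and 119 CPM in the tumour libraries, against 6.60 CPM (73 UMIs) in the normal library, and a log2 change of 5.21 ± 0.528 (adjusted p = 0.00915, edgeR). Both members of the chromosome 16 pair were high in both tumour libraries and low in the normal library, without overlap. Nkx2-2, a homeodomain factor that acts with OLIG2, had 36.5 and 22.6 CPM in the tumour libraries, against 1.81 CPM (20 UMIs) in the normal library. Its log2 change was 4.57 ± 0.491 (adjusted p = 0.0100, edgeR), and its tumour libraries were also both above the normal library.

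Sox10 and Pou3f1 stood out by how little of them the normal library held. Sox10, the SOXE factor that switches on myelin genes, had 269 and 142 CPM in the tumour libraries, against 0.813 CPM in the normal library, where it rested on 9 UMIs of all kept cells. The mean tumour level was 253-fold higher (133 to 553, the 95% counting interval of the normal library's UMIs). Pou3f1 had 161 and 75.9 CPM in the tumour libraries, against 0.723 CPM (8 UMIs) in the normal library, and was 164-fold higher (interval 83.1 to 379). Their log2 changes were 8.52 ± 0.675 (adjusted p = 0.00722) for Sox10 and 7.88 ± 0.730 (adjusted p = 0.00832) for Pou3f1 in edgeR's test. Tumour library 1 was the higher for both, and without it the log2 values were 7.93 for Sox10 and 7.20 for Pou3f1, from 1 library against 1 with no test. These intervals cover counting error only.

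Sox6, Sox2 and Sox11 had smaller fitted changes. Sox6, the SOXD factor that holds progenitors back from differentiation, had 221 and 157 CPM in the tumour libraries, against 17.6 CPM in the normal library, and a log2 change of 3.97 ± 0.383 (adjusted p = 0.00870, edgeR). Sox2, the stem cell factor of the SOXB1 group, had 209 and 147 CPM in the tumour libraries, against 23.0 CPM in the normal library, and a log2 change of 3.50 ± 0.374 (adjusted p = 0.0100, edgeR). For both genes the tumour libraries were above the normal library by a wide margin. Sox11, a SOXC factor of newborn neurons, had 55.8 and 44.3 CPM in the tumour libraries, against 27.9 CPM in the normal library, and its log2 change of 1.39 ± 0.301 had an adjusted p of 0.0314 in edgeR's test. Scaling to library size alone in place of TMM (edgeR's trimmed mean of M values) gave Sox11 0.84 with an adjusted p of 0.0998, so its call depends on the scaling.

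Sox9, the SOXE factor of astrocytes, was the exception. It had 9.94 and 8.22 CPM in the tumour libraries, against 56.0 CPM (620 UMIs) in the normal library. Its log2 change was -2.07 ± 0.291 with an adjusted p of 0.0143 in edgeR's test. The tumour libraries were both low and close to each other. Astrocyte-like cells, the class with the most Sox9, made up 4.21% and 1.29% of kept cells in the tumour libraries, against 6.33% in the normal library. TMM factors were 0.920 and 0.840 in the tumour libraries and 1.29 in the normal library, and the median log2 change of all genes tested was 0.138. With library size alone that median was -0.417, and 1686 genes were called higher and 3798 lower, where TMM gave 2680 higher and 1710 lower. The directions of the 9 factors were the same under both.

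**Figure D1:**
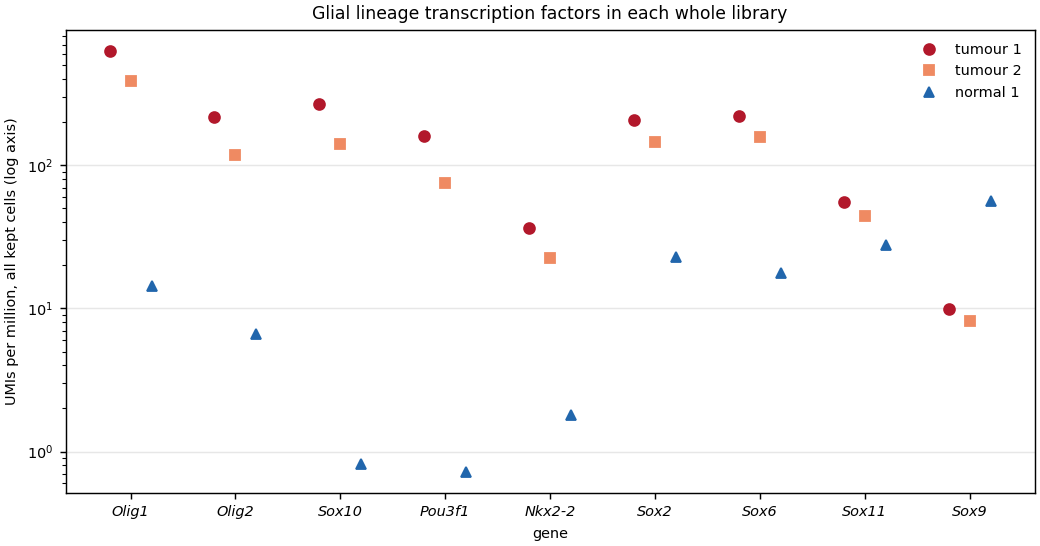
Level of each of the 9 genes summed over all kept cells of tumour 1, tumour 2 and normal 1, in CPM on a log axis, 1 point per library. Both tumour libraries lie above the normal library for every gene but Sox9, where they lie at 9.94 and 8.22 CPM against 56.0 CPM.

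By cell class, Olig1, Olig2, Sox10, Pou3f1, Nkx2-2 and Sox6 were highest in glioma cells, with library ranges that did not overlap those of the next class among the 16 named. This is a description over classes of at least 20 cells, with no test. In glioma cells of tumour 1 and tumour 2, Olig1 had 851 and 834 CPM, Olig2 296 and 252, Sox10 365 and 301, Pou3f1 220 and 163, and Nkx2-2 49.0 and 48.2. Sox2 had 282 and 312 CPM there, Sox6 299 and 335, Sox11 76.0 and 90.6, and Sox9 2.81 and 5.74. Tumour 1 was the higher for Olig1, Olig2, Sox10, Pou3f1 and Nkx2-2, and tumour 2 for the other 4 factors. Olig1 and Nkx2-2 differed least between the tumours and Sox9 most. Where glioma cells were taken as those of the same class with at least 2 Xist UMIs and no Y-gene UMI (92.3% of them in tumour 1, 87.1% in tumour 2), Olig1 had 857 and 845 CPM and Sox9 had 2.45 and 5.00 CPM.

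As a ratio, the gap between the tumours was larger in the whole library than in glioma cells for every factor but Sox9. Tumour 1 exceeded tumour 2 for all 9 factors in the whole library, and the glioma class made up 41.4% of its kept cells, against 22.3% in tumour 2.

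The next classes differed from factor to factor. Olig1 was by mean next highest in astrocyte-like cells, at 138 and 167 CPM in the tumour libraries and 168 CPM in the normal library. Mural-like cells of the tumour libraries overlapped that range, at 41.4 to 153 CPM. For Pou3f1 they came next after glioma cells by mean (11.4 to 42.9 CPM). They reached 66.0 CPM of Sox10 and 53.5 CPM of Olig2. The part of graft RNA in these mural-like values was not tested. Olig2 was at 90.8 and 89.0 CPM in astrocyte-like cells of the tumour libraries and 73.3 CPM in those of the normal library, close to the 85.1 CPM (9 UMIs) of normal oligodendrocyte-like cells. Nkx2-2 had 34.4 and 26.2 CPM in astrocyte-like cells of the tumour libraries and 22.9 CPM in those of the normal library, above every class other than glioma. Thus astrocyte-like cells carried both OLIG genes and Nkx2-2 with and without a tumour. In 86 oligodendrocyte-like cells of the normal library, Olig1 was at 94.5 CPM (10 UMIs), Sox10 at 47.3 CPM (5 UMIs) and Sox2 at 170 CPM (18 UMIs). Those cells gave 1 UMI each of Pou3f1, Nkx2-2 and Sox9, 2 of Sox11 and none of Sox6, so their depth allows no order among these genes. The tumour libraries had 8 oligodendrocyte-like cells each, under the minimum of 20, and are not given.

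Sox2 in glioma cells (282 and 312 CPM) overlapped Sox2 in astrocyte-like cells, which had 235 and 307 CPM in the tumour libraries and 258 CPM in the normal library. Sox6 was at 232 CPM (48 UMIs) in 25 erythroid-like cells of the normal library, a lineage in which SOX6 is known to act, and at 122 and 114 CPM in astrocyte-like cells of the tumour libraries and 127 CPM in those of the normal library. Sox11 ranked first in neuron-like cells, at 47.3 and 101 CPM in neuron-like cells of the tumour libraries and 112 CPM in those of the normal library, a range that overlapped the 76.0 and 90.6 CPM of glioma cells. Sox9 ranked highest in astrocyte-like cells, at 439 and 572 CPM in the tumour libraries and 731 CPM in the normal library. Choroid plexus-like cells (24, 71 and 30 cells) followed with 274 and 233 CPM of Sox9 in the tumour libraries and 293 CPM in the normal library, and glioma cells ranked only ninth of 16 classes.

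**Figure D2:**
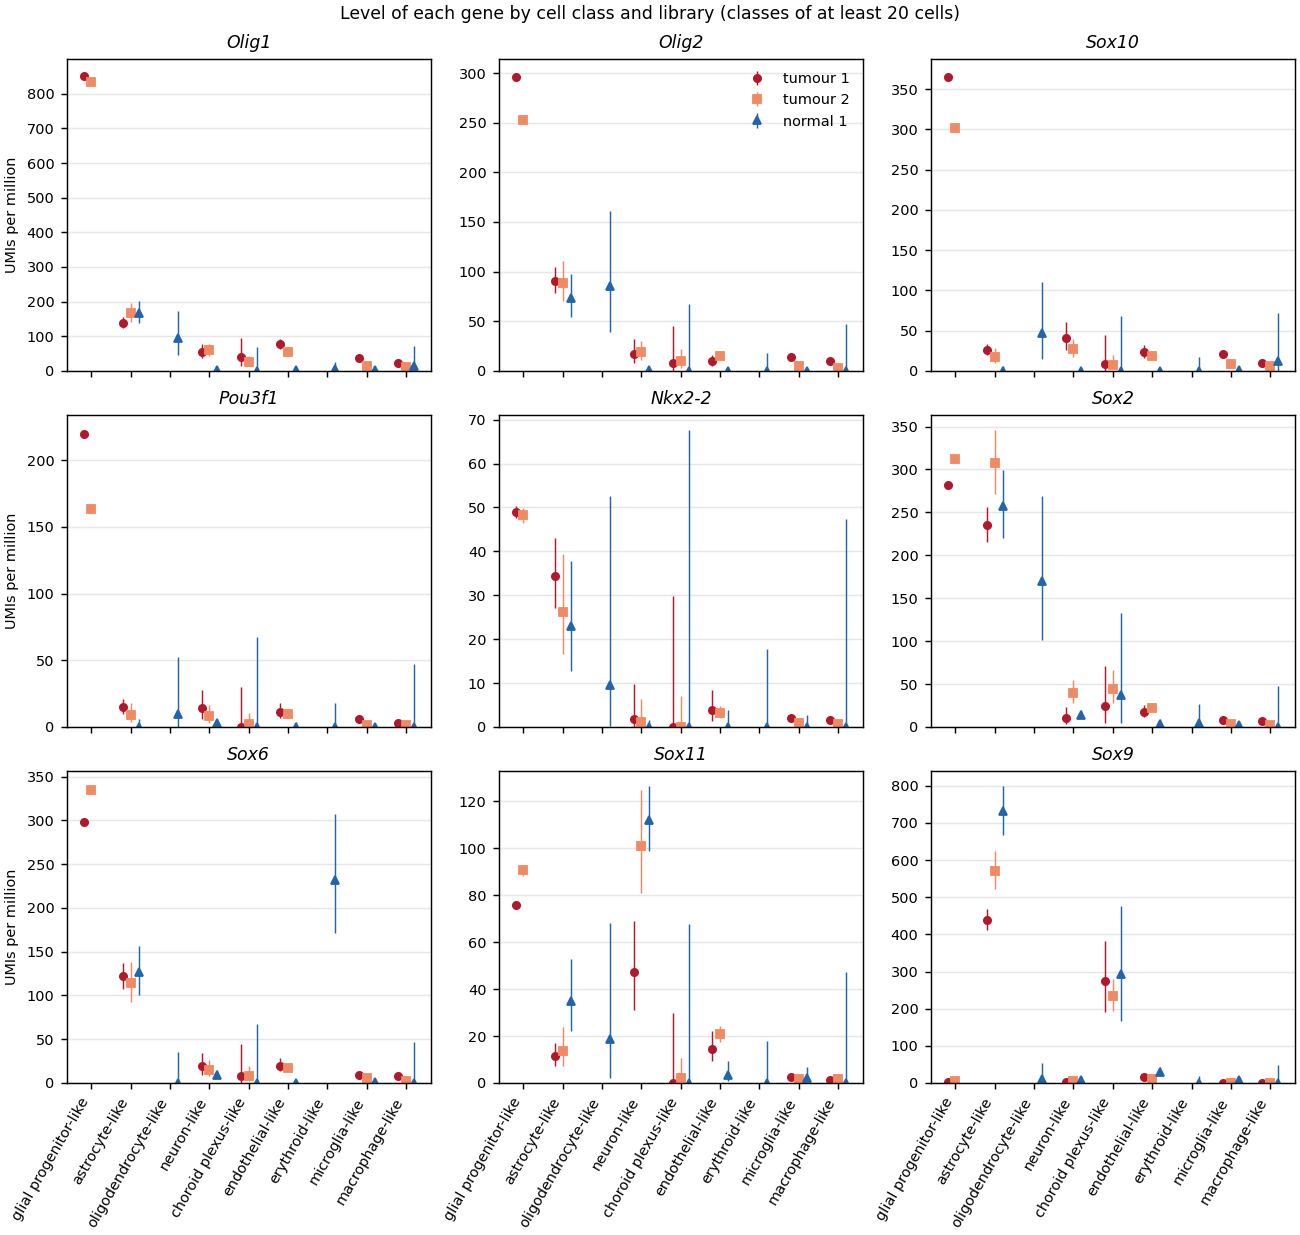
Level of each gene in selected cell classes, in CPM on a linear axis from 0. Each point is 1 library (tumour 1, tumour 2, normal 1) with at least 20 such cells, with the 95% counting interval of the summed UMIs. The classes are glial progenitor-like, astrocyte-like, oligodendrocyte-like, neuron-like, choroid plexus-like, endothelial-like, erythroid-like, microglia-like and macrophage-like cells. Other named classes, mural-like cells among them, are not drawn. Olig1, Olig2, Sox10, Pou3f1 and Nkx2-2 peak in glial progenitor-like (glioma) cells, Sox9 peaks in choroid plexus-like cells and above all in astrocyte-like cells, and Sox11 is shared by neuron-like and glioma cells.

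Among host cells, astrocyte-like cells of tumour-bearing brainstem differed from normal ones in 2 of the 9 factors by the test. In 444 and 121 astrocyte-like cells of the tumour libraries against 195 of the normal library, edgeR's test on summed UMIs called 5.07% of 9887 genes, 281 higher and 220 lower. Sox10 was called higher and Sox11 lower, and the other 7 did not pass. Sox10 had 25.7 and 17.1 CPM in astrocyte-like cells of the tumour libraries, against 0 UMIs in the normal library, where 3 UMIs would be 4.58 CPM. Its mean tumour level was therefore at least 4.68-fold higher (adjusted p = 0.00258, edgeR). Sox11 had 11.5 and 13.7 CPM in tumour astrocyte-like cells, against 35.1 CPM (23 UMIs) in normal ones, a log2 change of -1.55 ± 0.475 with an adjusted p of 0.0467 in edgeR's test. The call of Sox11 was lost with a stricter cell filter (log2 -1.43, adjusted p = 0.124). DESeq2 gave no adjusted p for Sox10 or Sox11 in these cells, and its unadjusted p was 0.00695 for Sox10 and 0.127 for Sox11. Beside it, the 9 neuron markers summed to 160 and 179 CPM in tumour astrocyte-like cells (7 and 5 detected), against 916 CPM (7 detected) in normal ones, and their part in the Sox11 value was not tested.

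Sox9 in astrocyte-like cells was lower in both tumour libraries, but its log2 change of -0.58 ± 0.213 did not pass (adjusted p = 0.105, edgeR). Sox2 had a log2 change of 0.02 (adjusted p = 0.984), Sox6 of -0.14 (0.835), Olig1 of -0.20 (0.737), Olig2 of 0.26 (0.706) and Nkx2-2 of 0.41 (0.670) in the same edgeR test. These values do not show that the levels were equal, and the depth of the normal library limits them: Nkx2-2 rested on 15 UMIs there. Pou3f1 had 14.7 and 9.13 CPM in tumour astrocyte-like cells, against 0 UMIs in normal ones, with an adjusted p of 0.0600, and passed under 4 of the alternative settings.

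Levels were also set against Pdgfra, the receptor gene that marks oligodendrocyte progenitors and is abundant in the graft. Glioma cells had 72.6 and 78.9 Olig1 UMIs, 31.1 and 28.5 Sox10 UMIs and 18.7 and 15.5 Pou3f1 UMIs per 100 Pdgfra UMIs in tumour 1 and tumour 2. In astrocyte-like cells the ratios of Sox10 (47.1 and 46.9) and Pou3f1 (26.9 and 25.0) were nearest to the glioma ratios. Those of Olig1 (253 and 456), Olig2 (166 and 244), Nkx2-2 (63.0 and 71.9), Sox2 (431 and 841), Sox6 (224 and 312), Sox11 (21.0 and 37.5) and Sox9 (805 and 1566) were several times the glioma ratios. The astrocyte-like ratios rest on 119 and 32 Pdgfra UMIs. Glial progenitor markers summed to 2064 and 2385 CPM in tumour astrocyte-like cells (11 and 10 of 11 markers detected), against 2271 CPM (9 of 11) in normal ones. Most of that sum was Ptprz1, at 1787 and 2151 CPM in the tumour libraries and 2123 CPM in the normal library. Pdgfra was at 54.6 and 36.5 CPM against 3.05 CPM, and Vcan at 53.7 and 53.6 CPM against 22.9 CPM. Matn4 was lower in both tumour libraries, and Lhfpl3, Cacng4 and Tnr lay on either side of the normal library. The part of graft RNA in the Sox10 and Pou3f1 values was not tested. In astrocyte-like cells with a Y-gene UMI and no Xist UMI (352, 90 and 130 cells), Sox10 was at 26.2 and 16.4 CPM in the tumour libraries and 0 UMIs in the normal library.

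In neuron-like cells (171 and 309 in the tumour libraries, 606 in the normal library), 2.64% of 10844 genes were called, 241 higher and 45 lower. Olig1 had 54.3 and 59.3 CPM in the tumour libraries, against 3.04 CPM (7 UMIs) in the normal library, a log2 change of 4.25 ± 0.529 (adjusted p = 0.000153, edgeR). Sox10 had 40.3 and 26.7 CPM in the tumour libraries, against 0 UMIs in the normal library, so its mean was at least 25.7-fold above the level of 3 UMIs there (adjusted p = 0.000408, edgeR). The tumour libraries were above the normal library for both. Sox11, the neuronal member, had a log2 change of -0.49 and was not called (adjusted p = 0.693, edgeR), and tumour 1 lay below tumour 2. Olig2 had 17.5 and 18.6 CPM in the tumour libraries, against 0.869 CPM (2 UMIs) in the normal library, 20.8-fold higher by counts (interval 5.76 to 172), and did not pass (adjusted p = 0.0723). Pou3f1 (adjusted p = 0.605), Sox2 (0.605) and Sox6 (0.696) were not called, the log2 change of Sox2 (0.95) was -0.40 without tumour 2, and Nkx2-2 and Sox9 were too low to enter the test.

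Beside these calls, Sox10 stood at 38.3 and 44.2 UMIs per 100 Pdgfra UMIs in neuron-like cells of tumour 1 and tumour 2, against 45.0 and 167 for Sox11, where glioma cells had 6.48 and 8.57 for Sox11. Glial progenitor markers summed to 724 and 612 CPM in neuron-like cells of the tumour libraries, against 376 CPM in those of the normal library. The part of graft RNA in the Olig1 and Sox10 calls was not tested.

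Microglia-like cells, which should lack all 9 factors, are given as the background. In 2648 and 2825 such cells of the tumour libraries against 725 of the normal library, 19.3% of 14608 genes were called, 1858 higher and 962 lower with TMM, and 1024 higher and 2630 lower with library size alone. Olig1 had 37.9 and 15.4 CPM in the tumour libraries, against 3.06 CPM (4 UMIs) in the normal library (log2 3.54, adjusted p = 0.0111, edgeR), and 2.84 without tumour 1. Sox10 had 20.5 and 8.89 CPM in the tumour libraries, against 1.53 CPM (2 UMIs) in the normal library, 9.60-fold higher by counts (interval 2.66 to 79.2, adjusted p = 0.0159, edgeR), and its fitted log2 of 3.68 was 3.04 without tumour 1. Olig2 was also called higher, with 0 UMIs in the normal library and a mean at least 4.11-fold above the level of 3 UMIs (adjusted p = 0.0241, edgeR). Sox6 had 8.74 and 6.22 CPM in the tumour libraries, against 0.765 CPM (1 UMI) in the normal library, 9.78-fold higher by counts (interval 1.76 to 386). It was called with edgeR (adjusted p = 0.0158) and not with DESeq2 (0.105). Sox9 had 0.383 and 0.527 CPM in the tumour libraries, against 6.89 CPM (9 UMIs) in the normal library, and was called lower (log2 -3.38, adjusted p = 0.0258 with edgeR and 0.0613 with DESeq2). For these 5 genes the directions were those of the whole library. Beside Sox9, the 11 astrocyte markers (all detected) summed to 263 and 165 CPM in microglia-like cells of the tumour libraries, against 543 CPM in those of the normal library. Pou3f1 (adjusted p = 0.0771), Nkx2-2 (0.173), Sox2 (0.194) and Sox11 (0.812) were not called.

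In microglia-like cells of tumour 1 and tumour 2, Olig1 stood at 80.3 and 80.2 UMIs per 100 Pdgfra UMIs, Sox10 at 43.4 and 46.4 and Pou3f1 at 12.6 and 9.36, beside the glioma ratios of 72.6 and 78.9 for Olig1, 31.1 and 28.5 for Sox10 and 18.7 and 15.5 for Pou3f1. Glial progenitor markers summed to 219 and 104 CPM in microglia-like cells of the tumour libraries, against 34.4 CPM in those of the normal library. Different clusters held most of this class. A cluster led by Havcr2 held 1481 of the cells in tumour 1, a cluster led by Lag3 held 1740 in tumour 2, and a cluster led by P2ry12 held 669 in the normal library. The part of free RNA and of these clusters in the calls was not tested.

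**Figure D3:**
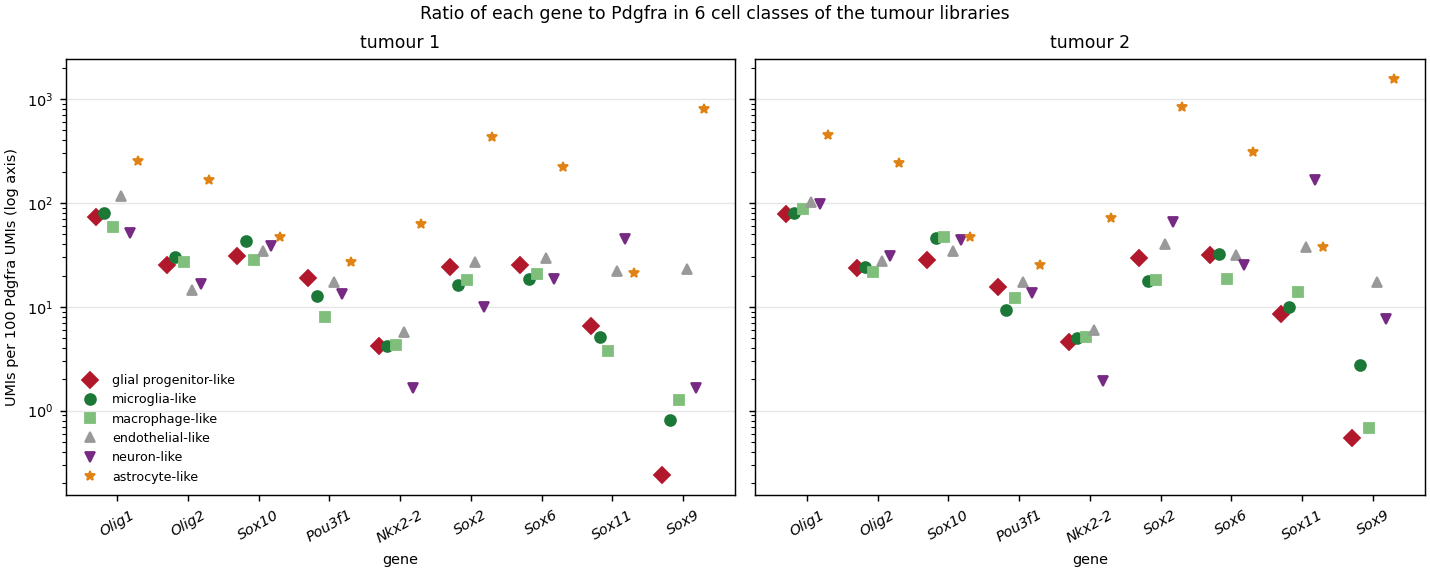
UMIs of each gene per 100 Pdgfra UMIs, on a log axis, in 6 cell classes of tumour 1 (left) and tumour 2 (right), 1 point per class. For Olig1, Olig2 and Nkx2-2, microglia-like cells lie near glioma cells, and they lie above them for Sox10 and below them for Pou3f1. Astrocyte-like cells lie far above glioma cells for Sox9 (805 and 1566 against 0.239 and 0.544) and Sox2.

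Glioma cells fell into 4 clusters, and the factors did not move together across them. Since clusters were built from genes of the same cells, differences between them are descriptions with no test. The base for comparison is the cluster in which Pou3f1, Lhfpl3 and Pnlip led, with 58.2% of glioma cells in tumour 1 and 43.1% in tumour 2. A cycling cluster led by H1fx and Cenpf held 22.9% and 26.0%, a hypoxic cluster led by Prss35 and Vegfa 16.7% and 24.2%, and a matrix cluster led by Papss2, Serpina3n and Fmod 2.15% and 6.68%. Summed hypoxia genes were at 3811 and 3027 CPM in the hypoxic cluster against 680 and 848 in the base cluster, G2 and M phase genes at 4869 and 6541 CPM in the cycling cluster against 144 and 158, and matrix genes at 500 and 1334 CPM in the matrix cluster against 71.9 and 59.9.

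Olig1, Olig2 and Pou3f1 were lowest in the matrix cluster. Olig1 had 377 and 365 CPM there in tumour 1 and tumour 2, against 975 and 1068 CPM in the base cluster, log2 differences of -1.37 and -1.55. Olig2 had 117 and 130 CPM in the matrix cluster against 317 and 323 in the base cluster, and Pou3f1 had 86.0 and 83.3 CPM in the matrix cluster against 261 and 212 in the base cluster, with log2 differences between -1.32 and -1.60. Sox11 was also lower there, at 36.6 and 36.1 CPM against 69.5 and 78.5 in the base cluster. Sox10, in contrast, was at 400 and 423 CPM in the matrix cluster against 388 and 332 in the base cluster, and Sox2 at 327 and 342 against 275 and 302. Thus the SOXE factor of the lineage did not share the lower level of the OLIG pair and Pou3f1 there. Sox9 was at 10.3 and 13.1 CPM in the matrix cluster (16 and 40 UMIs), against 1.81 and 3.80 CPM in the base cluster. Even this highest glioma level of Sox9 was far under the 439 and 572 CPM of astrocyte-like cells in the same libraries. Beside these values, the Y-linked genes of the host summed to 10.9 and 14.1 CPM in the matrix cluster, against 1.76 and 3.17 CPM in the base cluster, and Pdgfra was at 443 and 401 CPM against 1268 and 1117 CPM in the base cluster. The part of host RNA or host cells in the levels of the matrix cluster was not tested.

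In the hypoxic cluster, Olig1, Olig2 and Pou3f1 were also lower than in the base cluster in both tumours. Levels there were 497 and 713 CPM for Olig1, against 975 and 1068 in the base cluster, 182 and 168 CPM for Olig2 against 317 and 323, and 125 and 126 CPM for Pou3f1 against 261 and 212. Log2 differences of Sox10 were -0.14 and -0.16, of Sox6 -0.31 and -0.23, of Sox2 0.22 and 0.28, and of Sox9 1.51 and 0.93. In the cycling cluster, Olig1 and Pou3f1 were modestly lower (log2 differences of -0.26 and -0.50 for Olig1, and of -0.41 and -0.48 for Pou3f1). Sox10 (-0.23 and -0.35) and Sox6 (-0.25 and -0.27) were also lower there in both tumours. Sox11 (0.43 and 0.46) and Sox9 (0.77 and 0.57) were higher. Olig2 and Sox2 differed in sign between the tumours in the cycling cluster, and Nkx2-2 and Sox11 did so in the hypoxic one. Cells of the cycling cluster were deeper, with median totals of 23791 and 34873 UMIs against 14664 and 19330 in the base cluster. The part of depth in these differences was not tested.

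**Figure D4:**
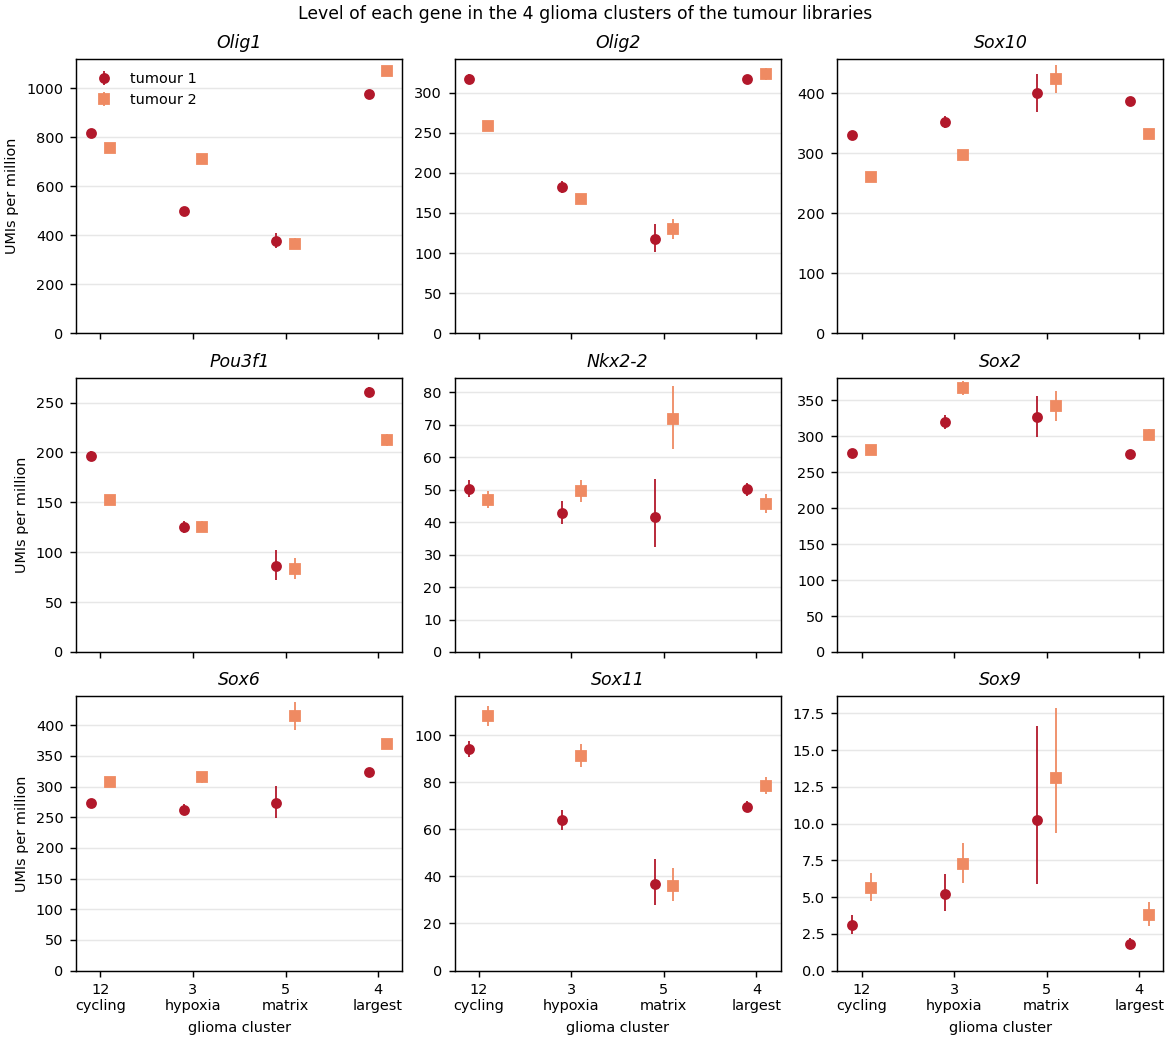
Level of each gene in the 4 glioma clusters of tumour 1 and tumour 2 (12 cycling, 3 hypoxic, 5 matrix, 4 base), in CPM on linear axes from 0, with 95% counting intervals of the summed UMIs. Olig1, Olig2 and Pou3f1 are lowest in cluster 5 (matrix), at 377 and 365 CPM for Olig1 against 975 and 1068 CPM in cluster 4 (base), while Sox10 and Sox2 are not lower there and Sox9 is highest there.

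Clusters without a class name also carried the factors. A cluster of 666 and 297 cells in the tumour libraries and 18 in the normal library, with median depths of 1195 and 1031 UMIs in the tumour libraries, had 916 and 849 CPM of Olig1 there. It was left unnamed for its low depth and for having no marker of its own list among its leading genes. An unnamed cluster led by Tsix and Xist (307 and 116 tumour cells, 1 normal cell) had 591 and 676 CPM of Sox6, against 299 and 335 CPM in glioma cells, and 125 and 202 CPM of Sox2, against 282 and 312 CPM in glioma cells. Xist, a nuclear RNA, was at 6393 and 6302 CPM in it, against 1068 and 1059 CPM in glioma cells.

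To see how many glioma cells held each factor, every cell was thinned to 1000 UMIs, which left out 7 and 1 shallower cells of 4371 and 2095. At that depth Olig1 was seen in 54.4% and 53.6% of glioma cells of tumour 1 and tumour 2, Sox10 in 30.5% and 27.0%, Sox6 in 25.3% and 30.5%, Sox2 in 23.9% and 26.5%, and Olig2 in 24.6% and 23.4%. Pou3f1 was seen in 18.5% and 14.9%, Sox11 in 5.80% and 8.50%, Nkx2-2 in 4.74% and 5.30%, and Sox9 in 0.206% and 0.573%. At full depth (all glioma cells, median 15813 and 21862 UMIs) Olig1 was seen in 97.5% and 97.6%, Sox10 in 97.3% and 98.0%, Olig2 in 91.4% and 91.3%, and Pou3f1 in 82.1% and 80.4%. In microglia-like cells at full depth (median 3928.5 and 8224 UMIs), Olig1 was seen in 19.3% and 12.99% of cells of tumour 1 and tumour 2, Sox10 in 11.03% and 8.46%, Olig2 in 7.78% and 4.39%, and Pou3f1 in 3.06% and 1.70%. The full-depth shares of these 4 factors were above that background in both tumours, in glioma cells that were also deeper. Sox9 was seen in 4.58% and 9.59% of glioma cells at full depth, beside 0.227% and 0.389% of microglia-like cells. In microglia-like cells thinned the same way (median depths 4058.5, 8336 and 1883 UMIs), Olig1 was seen in 5.66% and 2.04% of the cells of the tumour libraries and 0.175% of those of the normal library, which is the background to read these shares against. Sox10 was seen in 2.53% and 0.822% of microglia-like cells of the tumour libraries and in none of those of the normal library. Sox9 was seen in 0% and 0.0715% of microglia-like cells of the tumour libraries and 0.874% of those of the normal library.

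Glioma cells with an Olig1 UMI at 1000 UMIs held Olig2 at a share of 26.7% against 22.1% of cells without Olig1 in tumour 1 and 26.0% against 20.3% in tumour 2. Pou3f1 was found in 21.3% against 15.2% in tumour 1 and in 16.0% against 13.5% in tumour 2. The share with Olig2 or Pou3f1 was thus higher among cells with an Olig1 UMI in both tumours. For Sox10 the order was the other way, with 29.4% against 31.7% in tumour 1 and 26.5% against 27.7% in tumour 2. At 2000 UMIs per cell that order turned, with 52.4% against 50.3% in tumour 1 and 47.2% against 44.6% in tumour 2. These Sox10 differences were small, came from 1 random thinning per depth and were not tested, so no direction is given for Sox10. For Olig2 the direction was the same in both tumours at 500, 1000 and 2000 UMIs. Pou3f1 kept its direction too, but its shares in tumour 2 at 500 UMIs hardly differed (7.12% against 7.11%). At least 1 of the 9 factors was seen in 88.7% and 90.2% of glioma cells at 1000 UMIs, and 3 or more in 28.2% and 28.3%, with a median of 2.

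**Figure D5:**
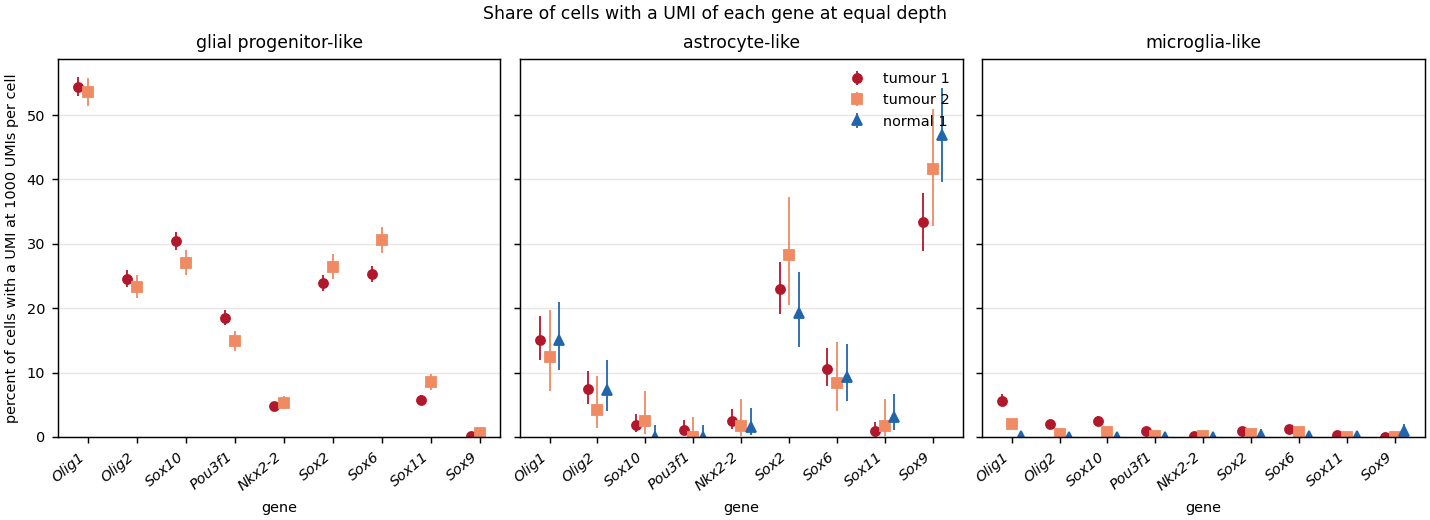
Percent of cells with a UMI of each gene after thinning every cell to 1000 UMIs, with exact 95% binomial intervals that cover counting error only, by class and library. In glioma cells Olig1 is seen in 54.4% and 53.6%, and Sox9 in 0.206% and 0.573%, while Sox9 is seen in 33.3% and 41.7% of astrocyte-like cells of the tumour libraries and 46.9% of those of the normal library.

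The genes whose pattern was most like each factor were named by Pearson's r of log2(CPM + 1) over the 40 sums of a class in a library with at least 20 cells. These sums share libraries and depth, and r is a description with no p. Olig1 was nearest to Fabp7 (r = 0.902), a fatty acid binding protein of radial glia, then to Olig2 (0.890) and Sox10 (0.865). Olig2 was nearest to Inka2 (0.899), and Sox10 to Col9a1 (0.883) and Pou3f1 (0.878). Pou3f1 was nearest to Kcnmb4 (0.937), a potassium channel subunit, Pnlip (0.920), the pancreatic lipase gene, and Otos (0.904).

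Nkx2-2 was nearest to Sox21 and Pax3 (both 0.881), both developmental transcription factors, and then to 6430503K07Rik (0.869), which overlaps it on the opposite strand. How reads in that overlap were counted is not given in the sources used here. Sox2 was nearest to Efs (0.913) and Pou3f2 (0.891), a neural POU factor that pairs with SOX2 on neural enhancers. Sox6 was nearest to Ppp2r2b (0.834), Sox11 to the neuronal gene Apc2 (0.905), and Sox9 to Acss3 (0.892) and Aldh1l1 (0.889), a folate enzyme used as an astrocyte marker. The Sox9 pattern ran apart from that of Sox10 (r = -0.17) and Pou3f1 (r = -0.12).

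Relatives of the 9 factors were read in the same whole-library test, where the median log2 change of all genes tested was 0.138. Of all 20449 genes tested there, 13.1% were called higher and 8.36% lower. Of 14 other SOX genes tested, 6 were called higher and 1 lower, with a median log2 change of 0.64. Sox3, a SOXB1 relative of Sox2, had 51.1 and 34.5 CPM in the tumour libraries, against 0.271 CPM (3 UMIs) in the normal library, 157-fold higher by pooled counts (interval 53.9 to 763, adjusted p = 0.00701, edgeR). Sox21 (log2 2.89), Sox5 (2.86), the SOXD partner of Sox6, and Sox4 (2.32), a SOXC relative of Sox11, were also called higher. Sox14 was called lower, with 3 UMIs in each tumour library against 16 UMIs in the normal library. Sox8, the third SOXE gene, had a log2 change of 1.91 (adjusted p = 0.0348, edgeR), and in glioma cells it was at 47.4 and 42.7 CPM, against 123 and 140 CPM in astrocyte-like cells of the same libraries. In normal oligodendrocyte-like cells Sox8 was at 151 CPM.

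The class III POU relatives Pou3f3 (log2 2.01) and Pou3f2 (1.41) were called higher, and the third, Pou3f4, did not pass (1.79, adjusted p = 0.0753, edgeR). Of 10 other OLIG and NKX genes, only Nkx6-1 and Nkx6-2 were abundant enough to test and neither was called. Among 17 other regulators of the oligodendrocyte lineage, 6 were called higher and 1 lower, with a median of 0.74. Zfp488, a partner of OLIG2, had a log2 change of 4.28, Prrx1 of 3.18 and St18 of -4.92. Of 14 astroglial regulators, 3 were called higher (Nfix 2.46, Stat3 1.38 and Nfib 1.35) and 1 lower (Id1, -2.46), with a median of 0.54. These counts stand beside 13.1% of all genes tested called higher and 8.36% called lower.

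Progenitor and myelin genes of the same lineage are given for comparison, beside 13.1% of all genes tested called higher and 8.36% called lower. All 13 oligodendrocyte progenitor genes were called higher, with a median log2 change of 5.31, but this list holds the markers that named the glioma class. Of 12 myelin genes, 4 were called lower (Mog -4.59, Aspa -4.14, Ermn -3.60 and Mobp -3.32) and 2 higher (Ugt8a 3.20 and Cnp 1.66), with a median of -1.13. Oligodendrocyte-like cells numbered 8 in each tumour library and 86 in the normal library, after a preparation that depletes myelin. Their part in the myelin gene calls was not tested.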

How the data were processed

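The labels describe 10x Genomics 3' single-cell libraries. The authors' deposited matrices hold UMI counts per gene and barcode, which per the file headers come from Cell Ranger 6.1.2. The build is mm10, according to the processing notes the submitters gave. The members and gene lists were chosen with earlier results of these data known. Cells with at least 500 UMIs, 300 genes and at most 15% mitochondrial UMIs were kept after removing Scrublet doublets (3.43% and 2.47% in tumour, 1.47% in normal). Scanpy 1.11.5 clustered them on 2000 variable genes without the 9 factors (30 components, 15 neighbours, Leiden with igraph 0.11.9, resolution 1.0). Clusters were named from 19 marker lists, at a score of at least 1 with at least 3 markers in 10% of cells. Kept cells of a class were summed per library, and edgeR 4.0.16 (R 4.3.3) tested tumour against normal on these counts with TMM and 1 residual degree of freedom. Prior degrees of freedom, from spread shared between genes, were 4.42 in the whole library. They were 38.8 in astrocyte-like, 16.2 in neuron-like and 8.92 in microglia-like cells. DESeq2 1.42.0, other scalings, filters and clusterings were the alternatives. Counting intervals are exact Poisson and shares have exact binomial intervals, at 95%. The fit was tested on simulated data with known changes. Of 2-fold changes, 7.46% were recovered in the whole library, 18.8% in astrocyte-like, 7.81% in neuron-like and 26.6% in microglia-like cells. In the same order, 38.5%, 73.8%, 75.8% and 66.7% of 4-fold changes were recovered, and 91.9%, 96.8%, 95.1% and 90.5% of 16-fold changes. All 9 factors are named. Other genes are the 3 nearest patterns by r (some not printed), list members called with the largest changes or kin of a factor, and leading cluster genes. Genome annotation was GENCODE on GRCm38.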

Additional observations from a re-analysis of the deposited data

Results flagged for a closer look

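For Olig1 and Sox6, both tumour libraries lay above the normal library in neuron-like cells and in microglia-like cells, and both below it in astrocyte-like cells. The difference between classes was not tested. The Olig1 log2 change (tumour over normal) was 4.44 higher in neuron-like than in astrocyte-like cells, and 3.74 higher in microglia-like than in astrocyte-like cells. The Sox6 log2 change was 1.02 higher in neuron-like than in astrocyte-like cells, and 3.86 higher in microglia-like than in astrocyte-like cells. The changes within astrocyte-like cells (-0.20 for Olig1 and -0.14 for Sox6) did not pass the test. There, Olig1 in tumour 2 was barely below the normal library, at 167 against 168 CPM. Sox6 in neuron-like cells did not pass either (log2 0.88, adjusted p = 0.696, edgeR). In microglia-like cells Sox6 rested on 1 UMI in the normal library, and its call was lost with DESeq2 (adjusted p = 0.105).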

How the results depend on the processing

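The whole-library directions of all 9 factors were the same under every alternative run, and the count of genes called there (4390) was between 4249 and 5533. Sox11 lost its whole-library call with library size alone (adjusted p = 0.0998). DESeq2 in place of edgeR called 76 genes in astrocyte-like cells (501 with edgeR), 127 in neuron-like cells (286 with edgeR) and 1765 in microglia-like cells (2820 with edgeR). The stricter cell filter (at least 1000 UMIs, at most 10% mitochondrial) called 324 genes in astrocyte-like and 494 in neuron-like cells, and dropping the low-count filter called 475 in neuron-like cells. In astrocyte-like cells, changes near 0 turned: Olig1 was 0.0696 and Sox2 -0.0722 under the stricter filter, and Sox2 was -0.12 in cells with a Y-gene UMI and no Xist UMI. Sox11 in microglia-like cells was -0.10 with library size alone. With DESeq2, Sox6 (adjusted p = 0.105) and Sox9 (0.0613) lost their calls in microglia-like cells, and Sox10 and Sox11 in astrocyte-like cells had no adjusted p (unadjusted 0.00695 and 0.127). The cause was not tested. Leaving out a tumour library left 1 against 1, which gave values and no test. Without tumour 2, Sox2 turned to -0.40 in neuron-like cells (1.58 without tumour 1) and to -0.16 in astrocyte-like cells (0.20 without tumour 1). No paired analysis was possible because the normal group has 1 library. The depth of the normal library limits Sox10 and Pou3f1, which rest on 9 and 8 UMIs there.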
